A study of Mus musculus with 6 samples.

Results

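Potassium, chloride, calcium, sodium and other cation channels were described in mIMCD3 cells, an immortalised mouse line of the inner medullary collecting duct, after 1 h with vehicle or with aldosterone. Members were all probe sets whose single annotated gene symbol began with Kcn, Clcn, Clic, Cacn, P2rx, or Scn, Trpc, Trpm or Trpv followed by a digit. The rule found 102 probe sets of 80 genes, among 12422 probe sets and 8251 singly named genes on the array, and 1 further probe set was left out because its annotation joined a channel to another gene. The experiment was repeated as 3 replications of 1 array per treatment, so that vehicle and aldosterone had 3 arrays each. The labels give no hormone dose, name no steroid-free or serum-free period, and describe repeats without saying more of the cultures, so p-values cover no more than how these arrays scatter, which may be technical. In cultured cells, less RNA per cell and fewer expressing cells cannot be told apart.

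Ion channels set the membrane voltage and carry the salt that the collecting duct moves. In that segment sodium enters through the epithelial sodium channel, potassium leaves through inward rectifier and calcium-activated potassium channels, and aldosterone, acting through the mineralocorticoid receptor, raises both over hours. Relatives of the plasma membrane chloride channels sit in endosomes and lysosomes, where most exchange chloride for protons, and TRP and P2X channels admit calcium and other cations.

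The arrays were single-colour oligonucleotide arrays. Deposited trimmed means agreed within 2488 to 2493 on 5 arrays and were 86.5 on the aldosterone array of replication 3, and all arrays were brought to one trimmed mean, so every level below is a scaled intensity. On the rescaled array 1 step of the deposited values was worth 2.42 units, against 0.0838 to 0.0840 on the others. Of 12 listed genes of simple epithelium and collecting duct, 11 were on the array and 10 were bright enough to be tested, among them Krt8, Krt18, Krt19, Cdh1, Pax8 and Hoxb7. The water channel gene Aqp2, which defines principal cells, was not, with 208 ± 80.1 for vehicle and 334 ± 370.4 for aldosterone (SD, n = 3 each). Summed over its probe sets, this list ran from 62760 to 83115 on vehicle arrays and from 58257 to 80466 on aldosterone arrays. Of 7 neuronal marker genes on the array 2 were tested, of 8 muscle genes 4, of 6 fibroblast genes 3, of 5 leukocyte genes 2 and of 5 endothelial genes 0. Their part in the channel signals was not tested.

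Most channel probe sets were dim. A probe set was tested where its mean log2 value over the 6 arrays reached the 40th percentile of all probe sets, which 34 of the 102 members (33.3%) did, against 60% of all probe sets by construction of the filter. These 34 represented 26 genes, and 54 channel genes had no tested probe set. Of the Clcn chloride channels and exchangers 10 of 13 probe sets passed, from 4 of 6 genes, and of the chloride intracellular channel (Clic) proteins 3 of 4, all of 1 gene. Of the P2X channels 3 of 4 passed, of the tandem-pore-domain potassium channels 3 of 5, of the calcium- and sodium-activated potassium channels 2 of 4, and of the TRP class 4 of 9. Classes were set by symbol, so a class name need not describe every member. The calcium- and sodium-activated class held Kcnma1, Kcnn1, Kcnn4 and Kcnu1. Of voltage-gated potassium channel pores, which shape the firing of nerve and muscle, 2 of 19 passed, of inward rectifiers 2 of 15, of potassium channel partner subunits 2 of 8, of calcium channel pores 2 of 8 and of their partners 1 of 5. None of the 8 probe sets of voltage-gated sodium channels did. Probe sets differ in how well they bind, so a dim one gives no statement on whether its transcript was present.

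**Figure D1:**
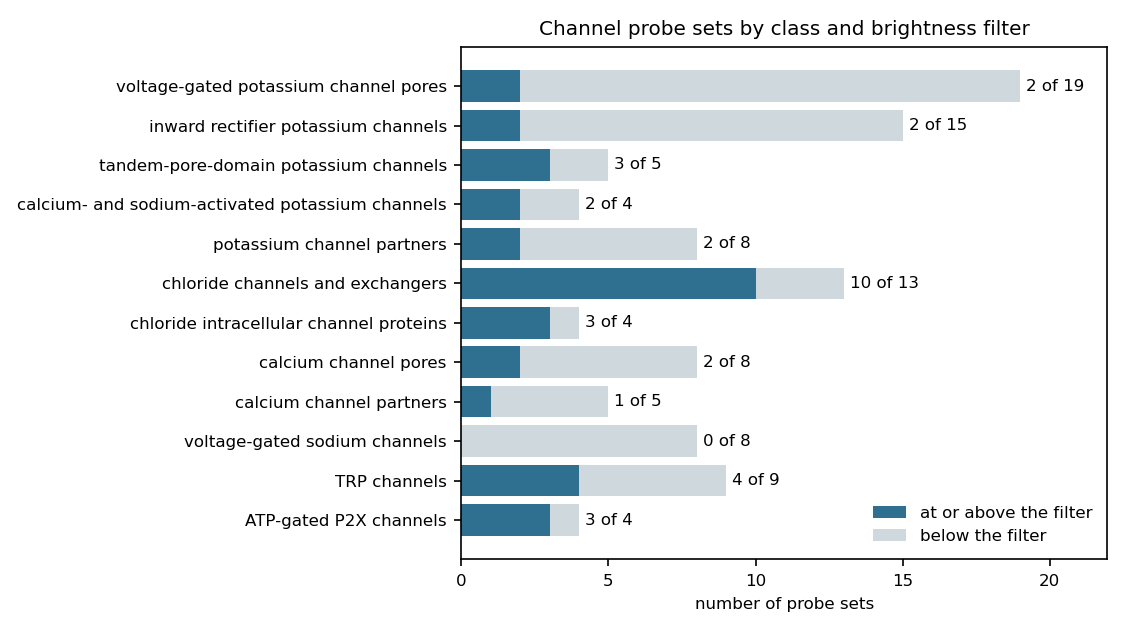
Number of channel probe sets in each class (horizontal axis, count), split into those at or above the brightness filter (dark) and those below it (light). The Clcn class holds 10 of the 34 that passed, and the voltage-gated sodium channels hold 0 of 8.

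The threshold fell at a mean log2 value of 8.87. Just above it were Clcn5 161451_r_at, with a mean log2 value of 8.88, Kcnma1 97759_at with 8.90, and Cacnb2 100757_at with 9.22. Just below it were Clcn1 95376_at with 8.86, Kcnj9 98332_at with 8.85 and Kcns2 101625_at with 8.74. Clcn1, the chloride channel of skeletal muscle, gave 724, 898 and 347 on the vehicle arrays against 568, 231 and 143 on the aldosterone arrays in that probe set. It was below vehicle in every replication (-0.32, -1.75 and -1.03), the groups overlapped, and as a member below the filter it was not tested. Kcns2, a silent modifier of voltage-gated potassium channels, gave 415, 556 and 338 on the vehicle arrays against 369, 441 and 213 on the aldosterone arrays. It was also below vehicle in every replication (-0.15, -0.30 and -0.56), with overlapping groups. Both genes lay below the filter, where 64.4% of all 4969 probe sets were lower by sign. The part of that shift in their values was not tested.

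No channel transcript passed the test after 1 h of aldosterone, and the members were split almost evenly in sign. By limma's fit on treatment alone, 0 of the 34 tested members had an adjusted p under 0.05, as did 0% of all 7453 tested probe sets, and the adjusted p of every member was 0.9995. By sign 18 members were higher and 16 lower after aldosterone. Their median log2 difference was 0.0066, beside -0.00029 over all tested probe sets, and the differences ranged from -0.68 to 0.47. The median size of the difference, whatever its sign, was 0.12 for members and 0.10 for all tested probe sets. An unadjusted p under 0.05 was reached by 1 member in the higher direction (0.617% of all tested probe sets) and by 0 in the lower direction (0.349% of all). The fit on treatment alone leaves the spread between replications in its error. By limma 72 of all tested probe sets had an unadjusted p under 0.05 in it, against 250 with the replication number as a block. Across the 3 replications 2 members were higher every time, beside 10.5% of all tested probe sets, and 2 were lower every time, beside 11.5%.

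The limits on a missed change were uneven. In the fit on treatment alone the 95% confidence interval was not adjusted for the number of members. It lay within 2-fold in either direction for 27 of the 34 members (79.4%), against 87.1% of all tested probe sets. It lay within 1.5-fold for 10 members (29.4%), against 49.4% of all. Those 10 were the 3 probe sets of Clic4, 3 of the 4 of Clcn3, 1 of Clcn7, P2rx4, P2rx7 and Trpc4ap. A change of 2-fold was inside the interval for Kcnj9, Kcnk1, Kcnn1, 1 probe set of Clcn7, Cacna1c, Trpm7 and P2rx1. With the replicate block the interval lay within 2-fold for 31 members (91.2%), against 92.1% of all tested probe sets, and within 1.5-fold for 12 (35.3%), against 65.7%. In that fit 2-fold was inside the interval for 3 members, Kcnj9, Kcnn1 and the same probe set of Clcn7, and no longer for Kcnk1 (-0.84 to 0.01), Cacna1c (-0.96 to 0.74), Trpm7 (-0.94 to 0.28) and P2rx1 (-0.97 to 0.12).

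**Figure D2:**
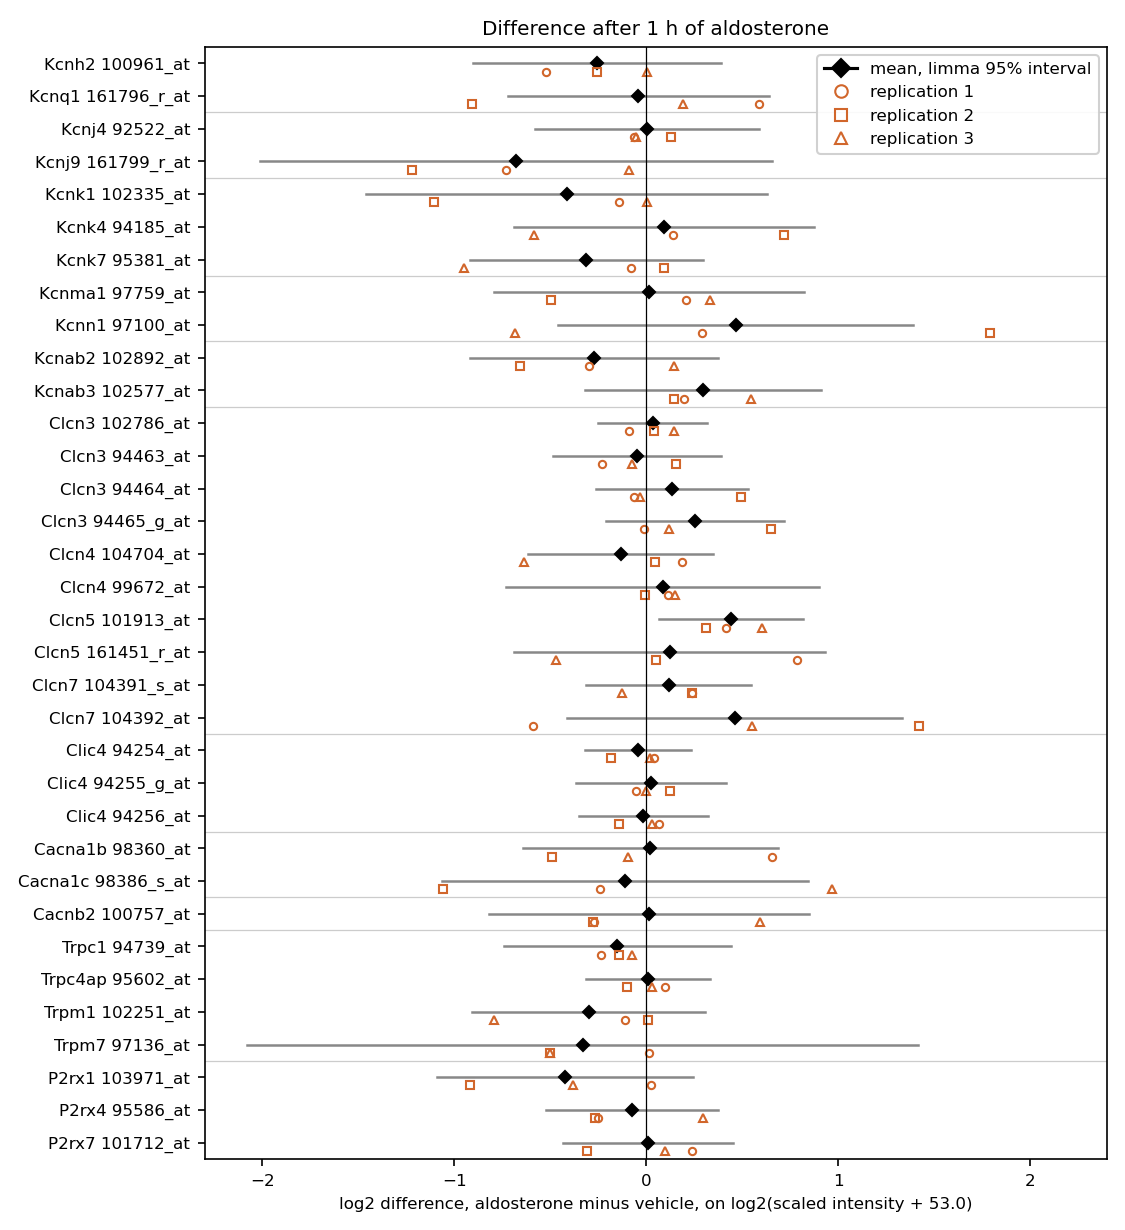
Log2 difference between aldosterone and vehicle (horizontal axis) for each of the 34 tested probe sets, grouped by class. Diamonds are means of 3 replications with limma's 95% confidence interval, and open symbols are the single replications; Clcn5 101913_at is the one interval that leaves out 0.

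Clcn5, the endosomal chloride and proton exchanger that is mutated in Dent disease of the proximal tubule, was the member with the smallest p. Its probe set 101913_at gave 1528, 1797 and 1499 on the vehicle arrays of replications 1, 2 and 3, and 2058, 2241 and 2301 with aldosterone. All 3 aldosterone arrays lay above all 3 vehicle arrays. Among tested members this was the only probe set so separated in the higher direction, 1 of 34, beside 1.91% of all tested probe sets, and 0 of 34 were separated in the lower direction, beside 2.27%. The means were 1608 ± 164 and 2200.1 ± 127 (SD, n = 3 each), a log2 difference of 0.44 (standard error, SE, 0.167) with a 95% interval of 0.07 to 0.82, or 1.36-fold. Within the replications the log2 differences were 0.42, 0.31 and 0.60. The unadjusted p was 0.0254 by limma, the 35th smallest of 7453, and did not hold after adjustment. With the replication number as a block the log2 standard error was 0.147 and the unadjusted p 0.0147 (adjusted p = 0.998). Leaving out single arrays or whole replications kept the log2 difference between 0.36 and 0.52. The unadjusted p by limma was above 0.05 without the vehicle array of replication 1 (0.0705) or 3 (0.0728), the aldosterone array of replication 2 (0.0635) or 3 (0.0732), or the whole of replication 1 (0.0915) or 3 (0.135).

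The other probe set of Clcn5, 161451_r_at, did not share the separation. It gave 283, 509 and 436 on the vehicle arrays against 524, 530.0 and 299.8 on the aldosterone arrays, and the groups overlapped. Its log2 difference was 0.12 (SE 0.359), and it was -0.09 without the vehicle array of replication 1 and -0.21 without the whole of replication 1. The suffix _r marks probe sets that were designed under relaxed rules, and Kcnj9 161799_r_at and Kcnq1 161796_r_at below also carry it.

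Clcn5 was the only tested member whose groups separated. Kcnj1 is the potassium channel through which aldosterone-sensitive cells secrete potassium, and its dim, untested probe set 103973_at also separated. For these genes the 250 bases before the annotated starts are shown, from RefSeq on GRCm38.p6, 5′ to 3′ on the gene's strand. Capitals mark the 6-base motif AGAACA or its reverse complement TGTTCT, the unit of steroid receptor response elements. The windows are chrX:7319359-7319608 (minus strand) and chrX:7188715-7188964 (minus strand) for Clcn5, and chr9:32393735-32393984 (plus strand) for Kcnj1.
Clcn5, upstream start: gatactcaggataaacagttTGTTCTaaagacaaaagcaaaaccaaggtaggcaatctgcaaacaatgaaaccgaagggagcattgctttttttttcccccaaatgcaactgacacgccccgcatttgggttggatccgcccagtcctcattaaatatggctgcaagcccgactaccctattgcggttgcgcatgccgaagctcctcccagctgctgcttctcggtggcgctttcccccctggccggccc
Clcn5, downstream start: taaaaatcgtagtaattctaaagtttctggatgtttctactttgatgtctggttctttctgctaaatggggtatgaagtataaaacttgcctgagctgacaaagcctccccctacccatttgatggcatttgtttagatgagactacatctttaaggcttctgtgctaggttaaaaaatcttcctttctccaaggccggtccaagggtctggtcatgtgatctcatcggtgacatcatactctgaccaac
Kcnj1: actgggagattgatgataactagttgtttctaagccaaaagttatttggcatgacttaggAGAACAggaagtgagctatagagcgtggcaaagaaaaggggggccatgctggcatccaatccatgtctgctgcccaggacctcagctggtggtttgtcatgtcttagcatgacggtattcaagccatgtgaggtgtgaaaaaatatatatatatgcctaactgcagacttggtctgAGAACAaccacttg

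The upstream Clcn5 window held the motif once, with its first base 230 bases before the start, the downstream one 0 times, and the Kcnj1 window 2 times, at 190 and 14 bases. On either strand the motif occurred in 12 of 87 windows of 66 channel genes (13.8%) and in 16.1% of all 32851 RefSeq windows of the same length. The full palindrome, AGAACA and TGTTCT with any 3 bases between them, occurred in 0 of the 87 and in 3 (0.00913%) of all windows. A match is a description of these letters and no evidence of binding.

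The Clcn class as a whole, Clcn5 included, had differences that did not all go one way. Of its 10 tested probe sets 8 were above vehicle and 2 below, at a median of 0.12 on the log2 scale and a range of -0.13 to 0.46, and 1, Clcn5 101913_at, was higher in all replications. Clcn3, an exchanger of late endosomes and synaptic-like vesicles, was measured by 4 probe sets, and 2 of them, 94464_at and its suffix _g partner 94465_g_at, may share probes. Probe set 102786_at gave 15065, 13130.4 and 14816 on the vehicle arrays against 14171, 13499 and 16400.3 on the aldosterone arrays, a log2 difference of 0.03 (SE 0.127). Probe set 94465_g_at gave 2734, 1804 and 2954 on the vehicle arrays against 2711, 2858 and 3213 on the aldosterone arrays, a log2 difference of 0.25 (SE 0.206). Its vehicle array of replication 2 was the low one and replication 1 was at -0.01. Probe set 94464_at had the same low array, at 2924 beside 4173 and 4294, with 3986, 4139 and 4202 for aldosterone and a log2 difference of 0.13. Probe set 94463_at gave 2857, 1941 and 2815 on the vehicle arrays against 2426, 2168 and 2671 on the aldosterone arrays, at -0.05. The groups overlapped in all 4.

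Clcn7, the exchanger of lysosomes and of the bone-resorbing membrane of osteoclasts, gave a log2 difference of 0.12 (SE 0.191) in probe set 104391_s_at and of 0.46 (SE 0.388) in 104392_at. The first gave 2616, 3264 and 2749 on the vehicle arrays against 3091, 3857 and 2519 on the aldosterone arrays. The second gave 1284, 384 and 562 on the vehicle arrays against 835, 1118 and 849 on the aldosterone arrays, so that its replications went different ways (-0.59, 1.42 and 0.55). Clcn4, another endosomal exchanger, gave 1181, 1181 and 1579 on the vehicle arrays against 1352, 1220.4 and 998 on the aldosterone arrays in probe set 104704_at, a log2 difference of -0.13. Its other tested probe set, 99672_at, was at 0.09 (SE 0.362), so these probe sets differed in sign. Clcn2, a chloride channel of the plasma membrane, was below the filter. It gave 272, 343 and 455 on the vehicle arrays against 389, 469 and 234 on the aldosterone arrays, and the groups overlapped.

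Clic4, a protein that moves between cytosol and membranes and takes part in lumen formation in tubular cells, was among the most precisely measured members. Probe set 94254_at gave 8202, 8499 and 8152 on the vehicle arrays against 8437, 7469 and 8258 on the aldosterone arrays, a log2 difference of -0.04 with a 95% interval of -0.32 to 0.23. Probe set 94256_at gave 10413, 12349.8 and 13518 on the vehicle arrays against 10914, 11207 and 13785 on the aldosterone arrays, at -0.015 with an interval of -0.35 to 0.32. The third, 94255_g_at, gave 0.02, with an interval of -0.37 to 0.42. All 3 intervals left out a change of 1.5-fold in either direction.

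**Figure D3:**
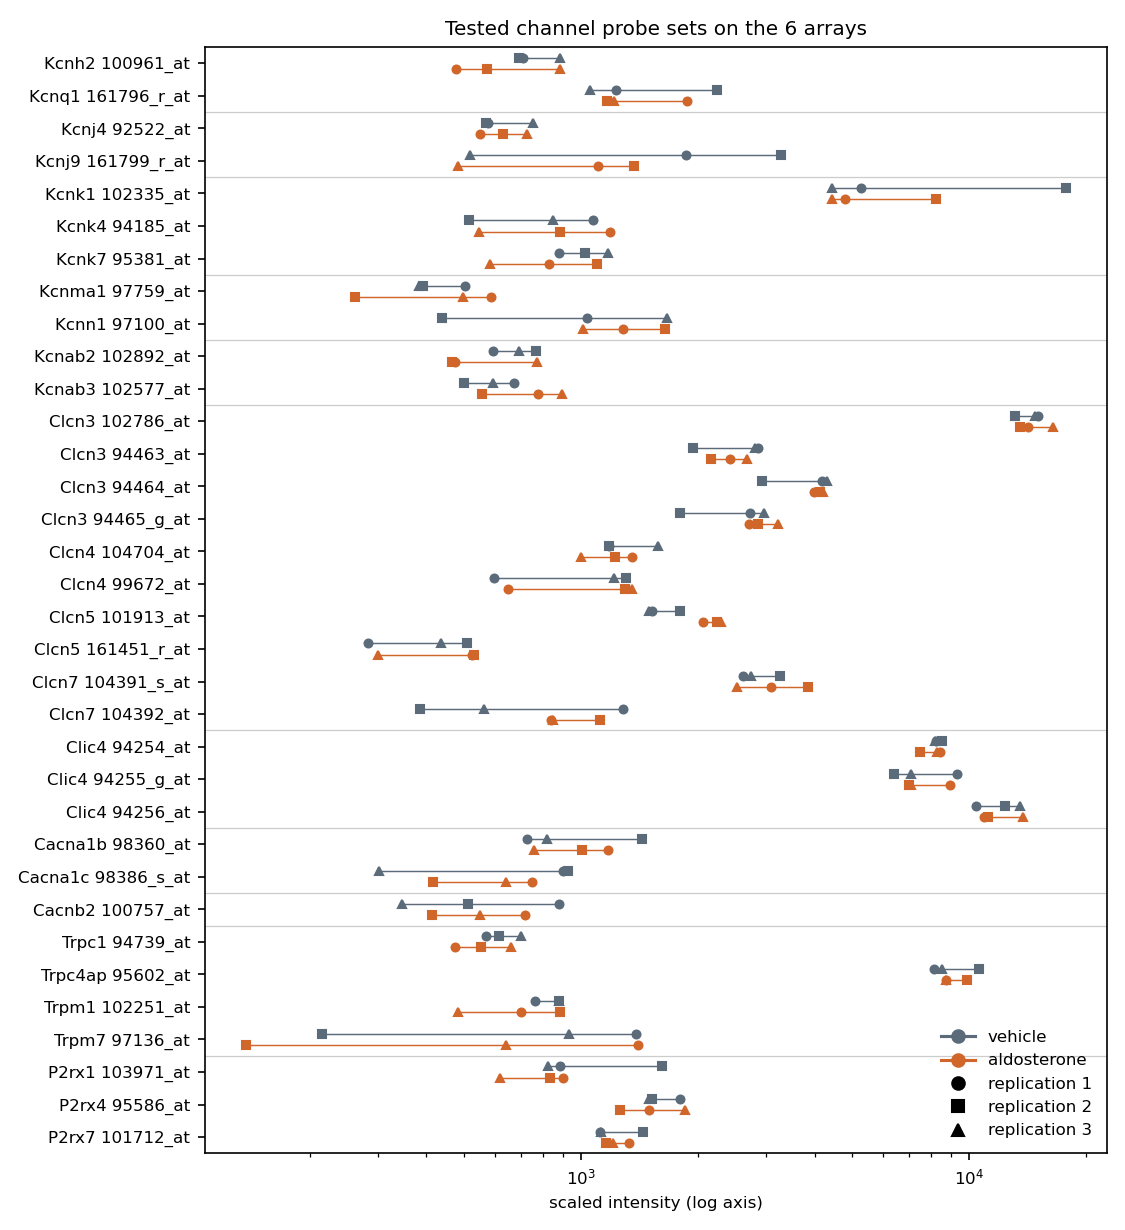
Scaled intensity (horizontal log axis) of the 34 tested probe sets on the 6 arrays, vehicle in grey and aldosterone in orange, with 1 symbol per replication and a line over each group's range. The orange and grey ranges are apart for Clcn5 101913_at alone, at 1499 to 1797 with vehicle and 2058 to 2301 with aldosterone.

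Among potassium channels, no class had a member that passed. Kcnk1, a tandem-pore-domain leak channel that is abundant in kidney tubules, gave 5277, 17766 and 4423 on the vehicle arrays against 4777, 8221 and 4439 on the aldosterone arrays. The vehicle array of replication 2 stood far above the other 5, and the aldosterone array of the same replication was next. Its log2 difference of -0.41 (SE 0.464) came from replication 2, where it was -1.11, while replications 1 and 3 gave -0.14 and 0.005. Without the vehicle array of replication 2 it was 0.21. With all arrays and the replicate block, the SE of the -0.41 was 0.188 (limma, unadjusted p = 0.0547, adjusted p = 0.998). Kcnk7, a family member with no well-established current of its own, gave 876, 1027 and 1174 on the vehicle arrays against 827, 1099 and 583 on the aldosterone arrays, a log2 difference of -0.31 that lay mainly in replication 3 (-0.95). Kcnk4, a channel opened by membrane stretch, had 0.09 (SE 0.348).

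The inward rectifiers gave 2 tested genes. Kcnj9, a subunit of G protein-gated channels best known from neurons, gave 1866, 3269.6 and 519 on the vehicle arrays against 1104, 1374 and 484 on the aldosterone arrays in probe set 161799_r_at. It was below vehicle in each replication (log2 differences of -0.73, -1.22 and -0.09), but the spread between replications exceeded the shift and the groups overlapped. The log2 difference was -0.68 (SE 0.593) on treatment alone, and its SE was 0.236 with the replicate block. With the block, an unadjusted p under 0.05 by limma was reached in the higher direction by 1 member, Clcn5, beside 2.07% of all tested probe sets. In the lower direction it was reached by 1 member, Kcnj9, beside 1.29% of all, and 0 members passed after adjustment. The limma p of Kcnj9 was 0.0180 (adjusted p = 0.998). The other Kcnj9 probe set, 98332_at, was below the filter and gave 529, 451 and 565 on the vehicle arrays against 570.4, 311 and 179 on the aldosterone arrays, higher in replication 1. Kcnj4, a constitutively open inward rectifier, gave 575, 570.3 and 754 on the vehicle arrays against 548, 628 and 725 on the aldosterone arrays, a log2 difference of 0.004.

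Kcnn1, a small-conductance calcium-activated potassium channel, had the largest positive log2 difference among the tested potassium channel probe sets, 0.47 (SE 0.412). It gave 1036, 439 and 1666 on the vehicle arrays against 1279.8, 1649.5 and 1015 on the aldosterone arrays, and replication 3 went the other way (-0.69 beside 0.29 and 1.79). Kcnma1, the pore of the large-conductance calcium-activated channel that carries flow-dependent potassium secretion, gave 503, 391 and 382 on the vehicle arrays against 588, 262 and 496 on the aldosterone arrays, a log2 difference of 0.015. Kcnn4, the intermediate-conductance channel, was below the filter and gave 748, 294 and 244 on the vehicle arrays against 229, 324 and 580.2 on the aldosterone arrays. No order of the groups was visible in either gene.

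Kcnq1, a voltage-gated pore that recycles potassium in many epithelia, gave 1229.9, 2239.7 and 1057 on the vehicle arrays against 1875, 1171 and 1214 on the aldosterone arrays in probe set 161796_r_at, at -0.04 on the log2 scale. Its other probe set, 99322_at, was dim, with 223, 124 and 78.6 for vehicle and 436, 57.4 and 67.7 for aldosterone. Kcnh2, the pore of a rapidly activating delayed rectifier of the heart, had -0.26 (SE 0.287). Of the cytosolic beta subunits that attach to voltage-gated channels, Kcnab3 was above vehicle in every replication (0.20, 0.14 and 0.54), with a mean log2 difference of 0.29, a standard error of 0.274 and overlapping groups. Kcnab2 gave 593, 764 and 693 on the vehicle arrays against 473, 465 and 771 on the aldosterone arrays in probe set 102892_at, at -0.27. Its dim probe set 162182_f_at gave 82.2, 124 and 103 on the vehicle arrays against 301, 305 and 55.6 on the aldosterone arrays. The 2 probe sets therefore pointed in opposite directions, and neither was resolved.

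Calcium channel genes showed no resolved difference. Cacna1b, the pore of a presynaptic calcium channel, had a log2 difference of 0.02 (SE 0.295), and Cacna1c, the pore of the L-type channel of heart and smooth muscle, had -0.11 (SE 0.423). For Cacna1c the replications gave -0.24, -1.06 and 0.97. The partner subunit Cacnb2 gave 879.5, 510.5 and 346 on the vehicle arrays against 718, 412 and 549 on the aldosterone arrays, at 0.015. In each of these genes at least 1 replication went against the others.

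In the TRP class 1 tested gene was higher and 3 were lower by sign. The higher one, Trpc4ap, matches the rule by its symbol but encodes a protein that associates with a TRP channel rather than a channel, and had 0.010 (SE 0.143). Trpm1, known from melanocytes and retinal bipolar cells, gave 763, 880.0 and 877 on the vehicle arrays against 701, 884 and 484 on the aldosterone arrays, at -0.30, with the low array in replication 3. Trpc1, a cation channel linked to store-operated calcium entry, was below vehicle in each replication (-0.24, -0.14 and -0.07) in probe set 94739_at, with a mean of -0.15 (SE 0.264). It gave 569, 615 and 699.7 on the vehicle arrays against 475, 553 and 662 on the aldosterone arrays, and the groups overlapped. Its dim probe set 94740_g_at gave 45.1, 63.6 and 187 on the vehicle arrays against 188, 199.9 and 114 on the aldosterone arrays, higher in 2 of 3 replications. Trpc6, a channel opened by diacylglycerol that is known from podocytes, was dim, with 67.5, 35.6 and 100.3 for vehicle and 22.8, 151 and 53.2 for aldosterone.

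The P2X channels, opened by extracellular ATP, had 3 tested genes. P2rx4 gave 1796, 1527 and 1498 on the vehicle arrays against 1499, 1261 and 1852 on the aldosterone arrays, at -0.07 on the log2 scale with an interval of -0.52 to 0.37. P2rx7, whose channel also forms a large pore, gave 1118, 1447 and 1129.7 on the vehicle arrays against 1329, 1159 and 1211 on the aldosterone arrays, at 0.009. P2rx1, known from smooth muscle and platelets, gave 885, 1618 and 823 on the vehicle arrays against 901, 832 and 619 on the aldosterone arrays. Its log2 difference of -0.43 (SE 0.296) was carried by replications 2 and 3 (-0.92 and -0.38), while replication 1 was at 0.03.

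Several channel genes differed more between the replications than between the treatments. In limma's F test over the 3 replications, 5 of the 34 tested members (14.7%) had an adjusted p under 0.05, beside 10.7% of all tested probe sets, so the members' share was near the background. The 5 were Trpm7, Kcnk1, Kcnj9 161799_r_at, Clcn4 99672_at and Clic4 94255_g_at. The median distance between the highest and the lowest replication was 0.43 on the log2 scale for members and 0.37 for all tested probe sets.

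Trpm7, a magnesium- and calcium-permeable channel fused to a kinase, gave 1389, 216 and 929 on the vehicle arrays against 1401, 137 and 641 on the aldosterone arrays. Both arrays of replication 2 lay below the other 4, and the replications spanned 6.41-fold (adjusted p = 0.00416). Its treatment difference of -0.33 had a standard error of 0.777 on treatment alone, where the spread between replications enters the error. With the replicate block the standard error was 0.268 (limma, unadjusted p = 0.249, adjusted p = 0.998). Kcnk1 was highest in replication 2 and spanned 2.71-fold (adjusted p = 0.0197), and Kcnj9 161799_r_at was also highest there and spanned 3.93-fold (adjusted p = 0.0255). Clcn4 99672_at gave 597, 1307 and 1217 on the vehicle arrays against 649, 1302 and 1356 on the aldosterone arrays, so that both arrays of replication 1 were low, at 2.01-fold (adjusted p = 0.0256). The other Clcn4 probe set did not share this, with 1.05-fold and an adjusted p of 0.969. Clic4 94255_g_at gave 9288, 6413 and 7069.9 on the vehicle arrays against 8943, 6991 and 7076 on the aldosterone arrays, highest in replication 1, at 1.36-fold (adjusted p = 0.0372). Clic4 94256_at was lowest in replication 1 and did not pass (adjusted p = 0.0711), so these probe sets of one gene did not order the replications alike.

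The count depended on which array was left out. It stayed at 5 without the aldosterone array of replication 2 and was 4, all but Clic4, without the vehicle array of that replication. It was 1 without the vehicle array of replication 1 (Trpm7) and 2 without the aldosterone array of replication 1 (Trpm7 and Kcnj9). On leaving out either array of replication 3 it was also 2, in both cases Trpm7 and Kcnk1. Without the intensity trend in the fit it was 2, Trpm7 and Clcn4. Shares of all tested probe sets under these settings are not set beside the counts, so nothing particular to channels can be read from them.

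**Figure D4:**
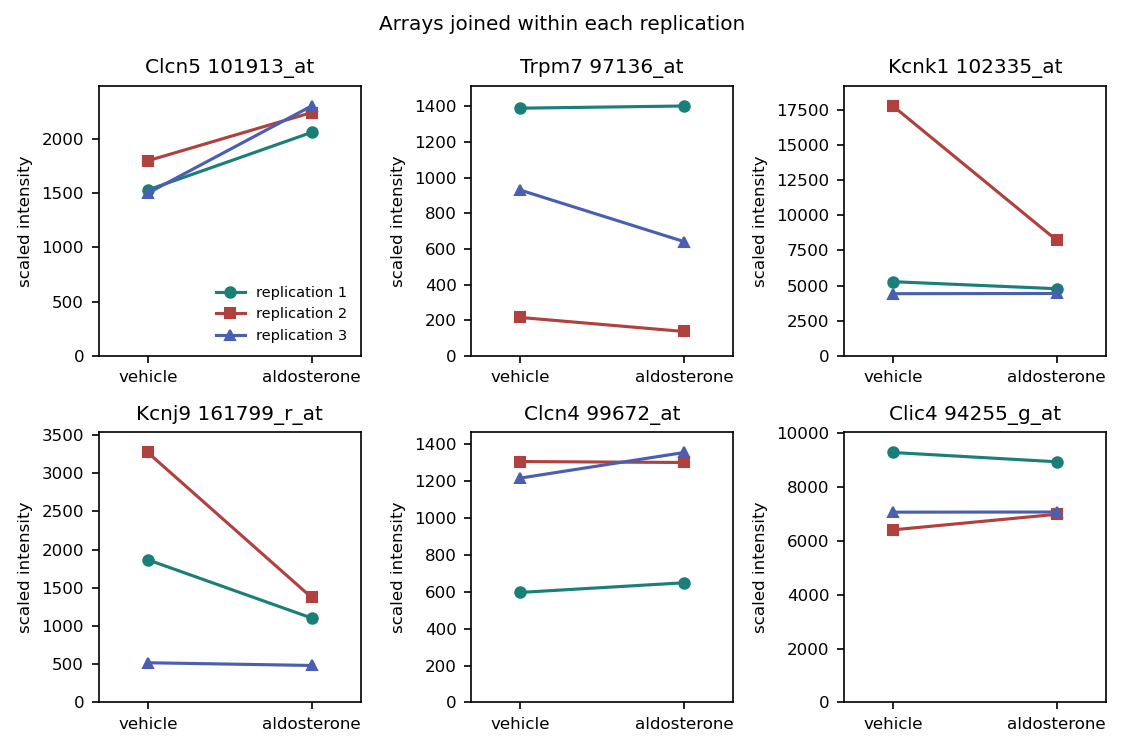
Scaled intensity (vertical axis, from 0) with vehicle and with aldosterone for Clcn5 101913_at and for the 5 probe sets that differed between replications, with a line joining the 2 arrays of each replication. Clcn5 is higher with aldosterone on all 3 lines, and for Trpm7 both arrays of replication 2, at 216 and 137, lie below the others.

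The 68 members below the filter were given no test. Of them 25 were higher and 43 lower by sign (63.2% lower), as were 64.4% of all 4969 dim probe sets, with median log2 differences of -0.14 for both. In replication 2 the median difference was -0.41 for the dim members and -0.41 for all dim probe sets, against 0.12 and 0.08 in replication 1. This level shift of dim probe sets moves with every value in this paragraph and the next, and its part in them was not tested. The 3 aldosterone arrays lay above the 3 vehicle arrays for 2 dim members, beside 1.87% of all dim probe sets, and below them for 6, beside 6.98%.

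Kcnj1 was 1 of the 2 in probe set 103973_at, which gave 163, 187 and 130.1 on the vehicle arrays against 320.4, 229 and 254 on the aldosterone arrays. Its other probe set, 103972_at, went the opposite way in each replication, with 64.6, 108 and 44.6 for vehicle and 37.9, 54.8 and 24.2 for aldosterone. Kcnj15, a kidney inward rectifier, was the other, with 63.3, 92.3 and 51.1 for vehicle and 235, 300.2 and 159.6 for aldosterone in probe set 99973_s_at, while 99974_at read 12.8, 56.5 and 23.1 and then 43.4, 16.1 and 14.5. For neither gene did a separate probe set repeat the separation. The 6 lower ones were P2rx6, Cacna1e 100338_s_at, Kcnj12, Kcnj6 92524_at, Kcna4 and Kcnd1. Kcnj6 92524_at gave 298, 430.2 and 63.9 on the vehicle arrays against 26.4, 18.6 and 36.3 on the aldosterone arrays, and Kcnd1, a transient potassium channel pore, read 151, 149 and 165 and then 100.2, 104 and 91.9. Kcne1, a partner of Kcnq1, gave 189, 276 and 108 on the vehicle arrays against 235, 123 and 82.2 on the aldosterone arrays, and the groups overlapped.

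Genes that act on channels or beside them, from lists of 4 kinds, also held no probe set past the adjusted threshold. Of 9 listed genes of the epithelial sodium channel and the sodium pump, 4 were on the array and 2 were tested, Atp1b1 with a log2 difference of 0.08 and Atp1b3 with 0.07. The 3 epithelial sodium channel genes were not among them. Of chloride partners 4 of 6 genes were tested, in 5 probe sets, 2 higher and 3 lower, from -0.18 for Cftr to 0.29 for 1 probe set of the cell volume gene Clns1a. Of genes of intracellular calcium stores 4 of 13 were tested, 1 higher and 3 lower, from -0.20 for Stim1 to 0.15 for Calm2. Of channel-regulating kinases and ubiquitin ligases 5 of 8 genes were tested in 9 probe sets, 5 higher and 4 lower with a median of 0.0047. The only one with an unadjusted p under 0.05 by limma was Sgk1, the kinase that keeps sodium channels at the cell surface. Its log2 difference was 1.63 (limma, unadjusted p = 3.62e-05, adjusted p = 0.242). With the replicate block its adjusted p by limma was 0.0509, so Sgk1 did not pass in either fit.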

How the data were processed

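RNA of 6 samples was measured on single-colour arrays. The authors deposited a linear intensity for every probe set of each array; the authors' scanning and summarisation software is not given in the sources used here. Each array was multiplied to the mean of the 2% trimmed means, 2090.0, by 0.838 to 0.840, or by 24.2 for the aldosterone array of replication 3. Values became log2(intensity + 53.0), the pseudocount being their 10th percentile, so fold changes of dim probe sets are understated. Probe sets below the 40th percentile of mean log2 value were left out of tests.

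Groups were compared over all 7453 tested probe sets with limma 3.58.1 in R 4.3.3 (lmFit, eBayes with trend, two-sided, Benjamini-Hochberg, threshold 0.05), on treatment alone, and replications by an F test. The fit on treatment alone and the F test were run on simulated arrays with independent noise. The simulation for the treatment fit held no replication effect, so it does not test that fit where replications differ. Replication numbers pair the arrays: the labels describe each as 1 experiment, and deviations of its arrays from the group means correlated at 0.377, 0.387 and 0.471. Symbols came from the array's annotation, and all 102 members' Entrez identifiers were found in RefSeq of GRCm38.p6, with 0 symbols changed.

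All tested members were named, with each array's values for the 8 smallest p by treatment, the 6 smallest by replication, listed kidney channel genes, genes with several probe sets of which at least 1 was tested, and the 3 members on either side of the filter. Members and lists were chosen with earlier results of these data known. Genes named outside that rule, among them the dim members whose arrays separated, were chosen after their values were seen.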

Additional observations from a re-analysis of the deposited data

How the results depend on the processing

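Under every treatment alternative run, 0 channel probe sets passed the adjusted threshold by limma. In the main fit 1 was higher and 0 lower at an unadjusted p under 0.05 by limma. The smallest adjusted p with the replicate block was 0.998. With the replicate block the unadjusted counts were 1 higher and 1 lower, and the block changed no other call. With no filter 102 members were tested. At an unadjusted p under 0.05 by limma 2 were higher and 4 lower (92 and 170 of all probe sets). The members' median was -0.085, and 8 were higher and 17 lower in all replications. This takes in the dim members, of which 63.2% were lower by sign, as were 64.4% of all dim probe sets. The share of all probe sets with the same sign in all replications was not counted for the lower filters. At the 20th percentile 62 were tested, with 2 and 1 at an unadjusted p under 0.05 and 6 and 7 in all replications; at the 60th 13 were tested, with 1 and 0 in all replications and 2 that differed between replications. Without the intensity trend 2 differed between replications, and with the treatment also in that model 4. Leaving out arrays or replications gave 0 to 1 higher and 0 to 2 lower at an unadjusted p under 0.05, medians of -0.071 to 0.026, and 1 to 5 that differed between replications. The count in all 3 replications has no value when arrays are left out. The counts that differed between replications stand here without the shares of all tested probe sets. So do the unadjusted counts at the 20th percentile and on leaving out arrays or replications, and the same-sign counts at the 60th percentile. Nothing particular to channels can be read from these counts. Causes were not tested, apart from the number of members tested. No limit on depth applies to arrays; their number limits the precision.

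Of the 34 named differences 9 kept their sign in all alternatives: Clcn5 101913_at, Clcn3 94465_g_at, Kcnab2, Kcnab3, Kcnh2, Kcnj9, P2rx1, Trpc1 and Trpm1. Clic4 94256_at turned to 0.013 when arrays were scaled to one median. Leaving out arrays turned 25, over these ranges of log2 difference: Cacna1b -0.30 to 0.31, Cacna1c -0.65 to 0.37, Cacnb2 -0.27 to 0.34, Clcn3 102786_at -0.049 to 0.093, 94463_at -0.23 to 0.044 and 94464_at -0.048 to 0.23, Clcn4 104704_at -0.29 to 0.12 and 99672_at -0.25 to 0.41, Clcn5 161451_r_at -0.21 to 0.41, Clcn7 104391_s_at -0.036 to 0.27 and 104392_at -0.019 to 0.99, Clic4 94254_at -0.083 to 0.030, 94255_g_at -0.091 to 0.18 and 94256_at -0.12 to 0.069, Kcnj4 -0.090 to 0.13, Kcnk1 -0.79 to 0.21, Kcnk4 -0.22 to 0.43, Kcnk7 -0.52 to 0.0076, Kcnma1 -0.049 to 0.32, Kcnn1 -0.20 to 1.04, Kcnq1 -0.36 to 0.39, P2rx4 -0.26 to 0.055, P2rx7 -0.11 to 0.17, Trpc4ap -0.064 to 0.13, and Trpm7 -1.06 to 0.47.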

Other observations

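Among the dim members, named here after their values were seen, Kcnd3, a pore of the transient potassium current of heart and neurons, gave 172, 2099.7 and 105 on the vehicle arrays against 219, 739 and 147 on the aldosterone arrays, so that both arrays of replication 2 lay far above the other 4. It joined the members called in the replication test where the filter was lowered to the 20th percentile or removed. Kcnj11, the pore of ATP-sensitive potassium channels, gave 288, 377 and 273 on the vehicle arrays against 1029.8, 215 and 181 on the aldosterone arrays, with the one high array in replication 1. Scn9a, a sodium channel pore of sensory neurons, gave 31.7, 226 and 23.0 on the vehicle arrays against 34.7, 35.0 and 29.0 on the aldosterone arrays. These are single probe sets.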
